A study of Mus musculus with 24 samples.

Results

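Enhancers primed in both genotypes were studied as distal regions that carried H3K4me1 but no H3K27ac, whether or not the cells had Dnmt3a. The cells were lung endothelial cells sorted by flow cytometry from Dnmt3a knockout mice (KO) and from wild-type mice (WT). Peaks of H3K4me1 from both genotypes were merged where they overlapped by at least 1 bp, which gave 59665 regions. Kept were regions over 1000 bp from both ends of every protein-coding gene that overlapped no H3K4me3 and no H3K27me3 peak of either genotype, and members were then chosen by their peaks: H3K4me1 in both genotypes and H3K27ac in neither. This left 5433 regions, out of 20667 that met all the conditions other than the one on H3K27ac. The absence and presence of these marks are therefore the definition of the regions and not a result.

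H3K4me1 is laid down at enhancers mainly by the methyltransferases Kmt2c and Kmt2d, and it can precede activation or remain after it. H3K27ac, written by Ep300 and Crebbp, is added when an enhancer becomes active, so that an element with H3K4me1 alone is called primed. Dnmt3a methylates DNA de novo, and its binding to histone H3 is hindered by methylation of lysine 4. In endothelium, enhancers are bound by ETS factors such as Erg and Fli1, and by AP-1, GATA and Kruppel-like (KLF) factors.

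The marks were mapped by ACT-seq, in which Tn5 transposase loaded with an antibody cuts and tags the DNA where the antibody binds. Crossing genotype (KO, WT) with mark (H3K4me1, H3K27ac, H3K4me3, H3K27me3) gives 8 groups with 3 of the 24 samples in each, and the peaks came as 1 list for each group on chromosomes 1 to 19 of mm10. The sources used here do not state the strain, age or sex of the mice, nor how and in which cells Dnmt3a was deleted. A list gives positions and widths only, so that the depth and the spread between samples are unknown, each difference between KO and WT is a difference between 2 lists, and no test was run. Intervals are exact binomial intervals at 95% that treat regions as independent and cover counting error only, and the interval of a median is taken from ranks in the same way.

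Few of the regions lie at an annotated start of transcription, and these can be shown as sequence. The rule itself removed regions within 1000 bp of protein-coding gene ends and regions with H3K4me3, so this low number is not a result. RefSeq windows of 300 bases, from 250 before to 50 after a start on GRCm38.p6, overlapped 67 of the 5433 regions (1.23%). The 72 windows belonged to 19 protein-coding genes and to 48 other symbols, mostly of noncoding RNAs. For 7 named protein-coding genes a window lay wholly inside a region, and the 5 with the longest stretch of H3K4me1 common to KO and WT are printed, since they are annotated starts with H3K4me1 and without H3K4me3. This set and the motifs were chosen after values were seen. Each is read 5′ to 3′ on the strand of its gene, and capitals mark matches on either strand to 4 short motifs: CNGGAAG for ETS factors, TGANTCA for AP-1, AGATAA for GATA factors and GGGNGNGG for KLF factors.
Pafah2 (chr4:134402662-134402961, plus strand): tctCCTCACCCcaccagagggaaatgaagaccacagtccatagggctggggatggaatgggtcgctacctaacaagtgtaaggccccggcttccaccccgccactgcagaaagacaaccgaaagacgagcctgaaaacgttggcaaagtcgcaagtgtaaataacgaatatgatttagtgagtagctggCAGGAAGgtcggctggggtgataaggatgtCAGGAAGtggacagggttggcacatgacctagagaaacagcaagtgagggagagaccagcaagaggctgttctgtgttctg
Rapgef2 (chr3:79145826-79146125, minus strand): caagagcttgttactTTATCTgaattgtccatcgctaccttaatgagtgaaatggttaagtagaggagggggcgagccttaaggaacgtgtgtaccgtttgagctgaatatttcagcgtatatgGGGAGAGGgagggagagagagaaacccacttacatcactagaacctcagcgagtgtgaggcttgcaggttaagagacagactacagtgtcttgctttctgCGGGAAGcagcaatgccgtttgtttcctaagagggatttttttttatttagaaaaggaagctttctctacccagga
Cyth1 (chr11:118202681-118202980, minus strand): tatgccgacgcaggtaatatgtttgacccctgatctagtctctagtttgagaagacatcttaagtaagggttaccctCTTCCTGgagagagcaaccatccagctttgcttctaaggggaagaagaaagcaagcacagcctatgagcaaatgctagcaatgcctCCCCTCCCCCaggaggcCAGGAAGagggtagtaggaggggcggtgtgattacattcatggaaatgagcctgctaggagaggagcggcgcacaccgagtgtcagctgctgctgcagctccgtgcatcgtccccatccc
Pacsin2 (chr15:83447831-83448130, minus strand): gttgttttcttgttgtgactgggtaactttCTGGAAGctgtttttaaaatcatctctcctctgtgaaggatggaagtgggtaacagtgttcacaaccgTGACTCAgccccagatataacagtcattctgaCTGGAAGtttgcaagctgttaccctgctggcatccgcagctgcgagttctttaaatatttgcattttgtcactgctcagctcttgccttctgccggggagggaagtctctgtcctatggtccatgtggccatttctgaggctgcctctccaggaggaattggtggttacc
Radil (chr5:142544978-142545277, minus strand): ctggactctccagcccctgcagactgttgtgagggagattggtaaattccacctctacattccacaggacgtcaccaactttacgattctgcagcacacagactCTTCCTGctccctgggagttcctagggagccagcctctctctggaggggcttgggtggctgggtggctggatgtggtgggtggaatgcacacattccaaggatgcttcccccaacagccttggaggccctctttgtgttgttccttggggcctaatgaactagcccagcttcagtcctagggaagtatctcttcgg

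These 5 windows lie in Pafah2, a platelet-activating factor acetylhydrolase, Rapgef2, an exchange factor of Rap proteins, Cyth1, an exchange factor of Arf proteins, Pacsin2, an F-BAR protein of endocytosis and caveolae, and Radil, an effector of Rap proteins. The Pafah2 region was wide in both genotypes, with H3K4me1 peaks of 984 bp in KO and 869 bp in WT and 848 bp in common. That of Rapgef2 was wider in KO, 840 bp against 308 bp in WT, and so was that of Cyth1, 809 bp in KO against 237 bp in WT. At Radil the KO peak was the narrower one, 216 bp against 537 bp in WT, while at Pacsin2 the widths were alike, 551 bp in KO and 565 bp in WT. The nearest H3K27ac peak was 1430 bp from the Rapgef2 region in KO and 5524 bp in WT, and 5855 bp from the Pafah2 region in KO and 5744 bp in WT. All 5 printed windows held an ETS match, whereas those of Tlcd3b and Sorbs2, the other 2 of the 7 genes, held KLF matches and none for ETS, and the Pacsin2 window also held an AP-1 match. In the Cyth1 window 1 pair of KLF matches overlapped.

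Over all 72 windows in primed regions, an ETS match was found in 33 (45.8%, interval 34.0 to 58.0). The share was 43.1% of 202 windows in regions active in both genotypes, 28.6% of the 13246 windows over 1000 bp from protein-coding gene ends and 32.2% of all 31396 windows. AP-1 matches were in 13.9% of windows in primed regions (6.87 to 24.1) and in 9.90% of those in active regions, against 9.44% of all windows away from gene ends and 7.84% of all windows. GATA matches were in 16.7% of windows in primed and 17.3% in active regions, against 14.0% of all away from gene ends and 11.2% of all windows. KLF matches were in 38.9% in primed and 46.5% in active regions, against 38.0% and 49.8%. The median window in primed regions had 5 CG dinucleotides, 0.295 of the number its C and G content would give, against 4 and 0.223 in active regions. The values were 4 and 0.25 for all windows away from gene ends and 7 and 0.389 over all windows. Windows of 1 gene can overlap, a match is not a bound site, and these windows speak for 1.23% of the primed regions only.

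Primed regions were the second most frequent state of shared distal H3K4me1, after regions active in both genotypes. They made up 26.3% (25.7 to 26.9) of the 20667 regions. Regions with H3K27ac in both genotypes numbered 10059 (48.7%), those primed in KO and active in WT 2775 (13.4%), and those active in KO and primed in WT 2400 (11.6%). A further 330 regions met every condition other than the one on H3K27me3. Per chromosome the share that was primed in both ran between 23.6% on chromosome 10 (21.2 to 26.1) and 29.1% on chromosome 11 (26.6 to 31.8).

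The conditions cut through a continuum. At the limit of 1000 bp, 108 members lay up to 1500 bp from a gene end, and 83 otherwise alike regions lay between 500 and 1000 bp from one. An H3K27ac peak of either genotype came within 100 bp of 114 members and within 500 bp of 646, while 254 regions outside the set overlapped 100 bp or less of H3K27ac in the 2 genotypes together. The KO and WT peaks of 115 members shared 50 bp or less, and 209 regions primed in 1 genotype missed a peak of the other by 50 bp or less.

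Primed regions were narrower than active ones and wider than regions primed in 1 genotype only. The merged region had a median width of 458 bp (250 to 816 for the central 80%), against 686 bp (393 to 1134) for regions active in both, 538 bp for those primed in KO and active in WT, 528 bp for those active in KO and primed in WT, and 587 bp for all 20667. Regions primed in KO only and in WT only, which hold peaks of 1 list, had medians of 245 bp and 188 bp. Among the 5222 primed regions made of 1 KO and 1 WT peak, the median peak width was 375 bp in KO (170 to 729) and 287 bp in WT (136 to 557). In active regions these medians were 621 bp in KO and 514 bp in WT. With the 20667 regions ordered by merged width and divided into 10 classes, 52.6% (50.4 to 54.8) of the narrowest class, up to 305 bp, were primed in both and 17.9% active in both. In the widest class, from 1026 bp, 8.77% (7.58 to 10.1) were primed and 75.4% active. The share that was primed fell at each step between these classes. A wider region has more room to overlap an H3K27ac peak, and peak width also depends on depth and threshold, which are unknown. Their part in the result was not tested.

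**Figure D1:**
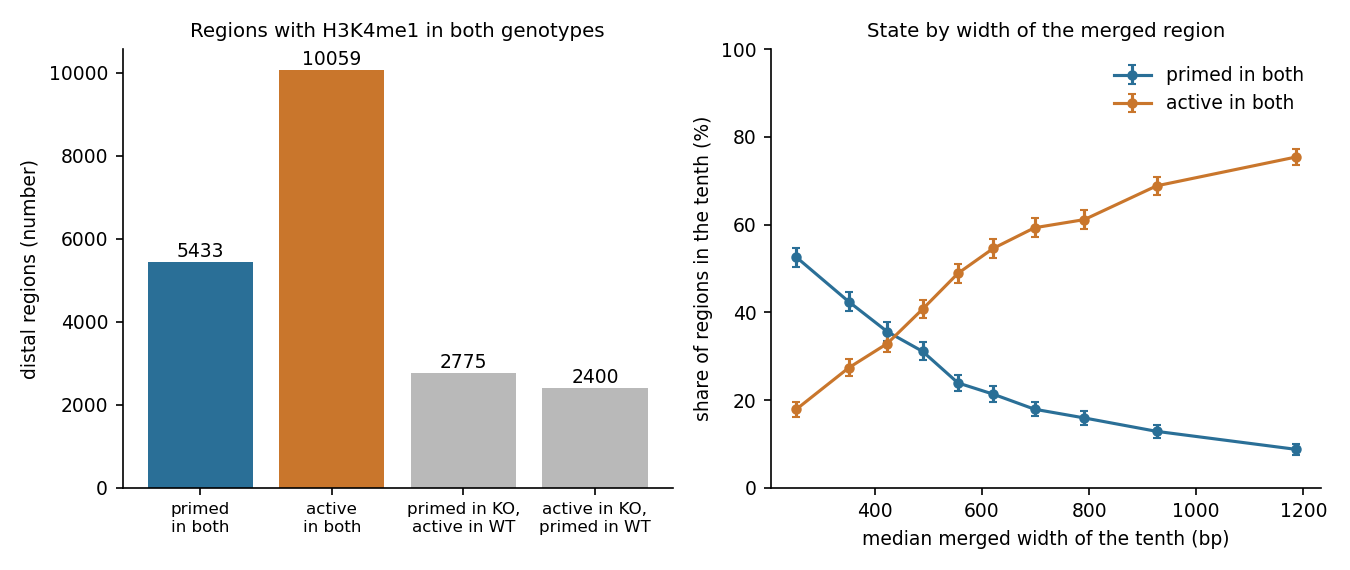
Left, number of distal regions with H3K4me1 in both genotypes by the presence of H3K27ac. Right, share of regions primed (blue) or active (orange) in both genotypes (y axis, percent) in 10 classes of merged width (x axis, median width in bp), with bars for the exact 95% interval. The primed share is 52.6% in the narrowest class and 8.77% in the widest.

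H3K4me1 was wider in KO at most primed regions, as it was over all regions. The median KO over WT width ratio was 1.25 (1.23 to 1.27) at primed regions and 1.17 (1.16 to 1.18) at active ones. The KO peak was the wider one at 65.1% of primed regions (63.8 to 66.4) at 70.5% of active regions (69.6 to 71.4) and at 68.4% of all 19550 regions of 1 KO and 1 WT peak. A KO peak at least 1.5-fold wider was found at 1974 of 5222 primed regions, 37.8% (36.5 to 39.1), beside 24.2% of active regions and 30.6% of all 19550. A KO peak at least 1.5-fold narrower was found at 683 primed regions, 13.1% (12.2 to 14.0), beside 5.88% of active regions and 9.08% of all. Regions primed in KO and active in WT lay between, with 34.0% wider and 11.7% narrower, and so did regions active in KO and primed in WT, with 36.3% and 10.2%. The KO list of H3K4me1 as a whole had wider peaks, with a median of 461 bp against 384 bp in WT. Within the 10 width classes the median ratio was 1.04 to 1.95 at primed and 0.965 to 1.35 at active regions, higher at primed regions in each, although a merged width contains both peaks and so limits their ratio.

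The peaks of the genotypes were nested more often than displaced. In these pairs the common stretch had a median of 219 bp. The WT peak lay wholly inside the KO peak at 38.1% of primed regions and the KO peak inside the WT peak at 17.5%, and the centres were 61 bp apart at the median.

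**Figure D2:**
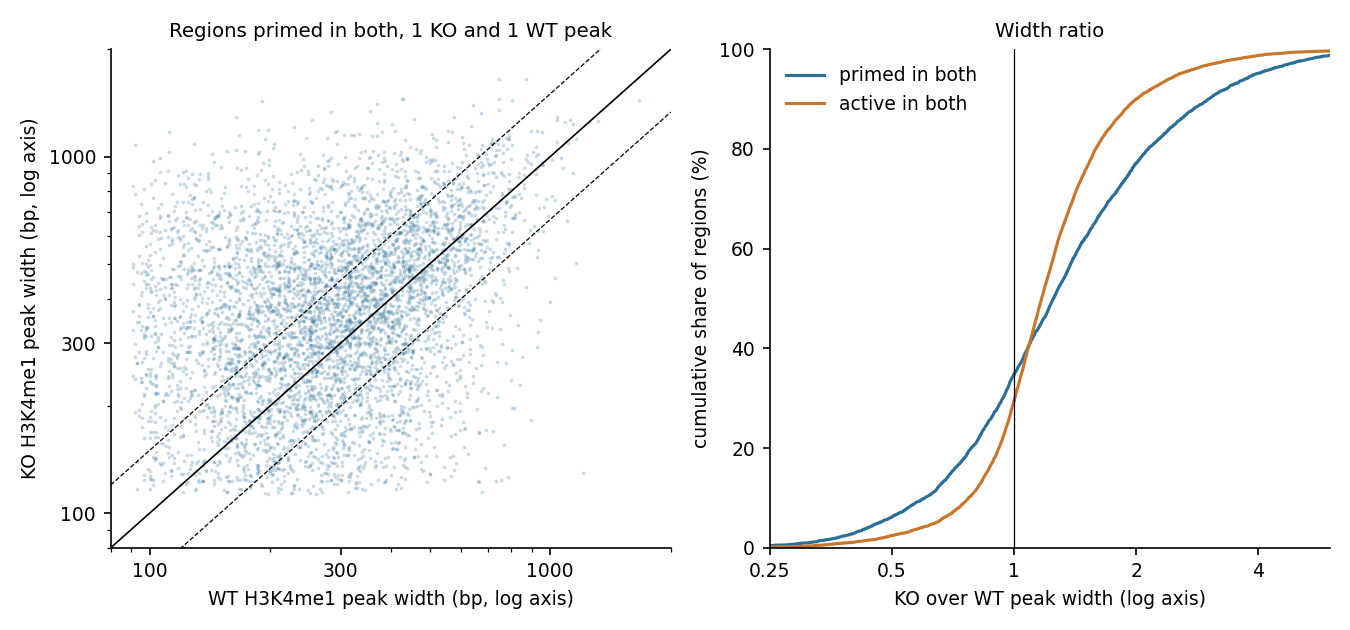
Left, width of the KO peak (y axis, bp, log) against that of the WT peak (x axis, bp, log) for the 5222 primed regions of 1 KO and 1 WT peak, with lines at equal width (solid) and at 1.5-fold (dashed). Right, cumulative share (y axis, percent) of the KO over WT width ratio (x axis, log) at primed (blue) and active (orange) regions. The primed curve is flatter, with 37.8% of regions at or above 1.5, against 24.2% of active regions.

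Long stretches of H3K4me1 common to both genotypes were rare at primed regions. They reached 1000 bp in 10 primed regions (0.184%), beside 297 active ones (2.95%) and 328 of all 20667 (1.59%). The longest lay in Hspg2, the gene of the basement membrane proteoglycan perlecan (chromosome 4, 137497187 to 137498859), with a KO peak of 1437 bp, a WT peak of 1661 bp and 1425 bp in common. Its nearest H3K27ac peak was 13029 bp away in KO and 13021 bp in WT. The next, in Tmem184b (chromosome 15, 79390352 to 79391994), had 1522 bp of H3K4me1 in KO, in 2 peaks, and 1642 bp in WT. The third lay between genes, 77211 bp from Dll1, the gene of a Notch ligand (chromosome 17, 15288825 to 15290143), with 1260 bp in KO and 1319 bp in WT. Its nearest H3K27ac peak was 2436 bp away in KO and 3106 bp in WT. The fourth was 225164 bp from Cog6, a subunit of a Golgi tethering complex (chromosome 3, 52755803 to 52756959), with 1123 bp in KO and 1157 bp in WT.

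The other 4 of the 8 longest lay in Agtpbp1, a carboxypeptidase that acts on tubulin (1270 bp in KO, 1121 bp in WT), in Myo1e, a class I myosin (1237 bp in KO, 1142 bp in WT), in Farp1 (1250 bp in KO, 1089 bp in WT), and 147394 bp from Prickle1, a planar polarity gene (1094 bp in KO, 1108 bp in WT). All 8 had KO over WT ratios between 0.865 and 1.15. At Farp1 the nearest H3K27ac peak was 47309 bp away in KO and 4174 bp in WT, and at Agtpbp1 it was 965 bp away in KO and 7037 bp in WT.

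**Figure D3:**
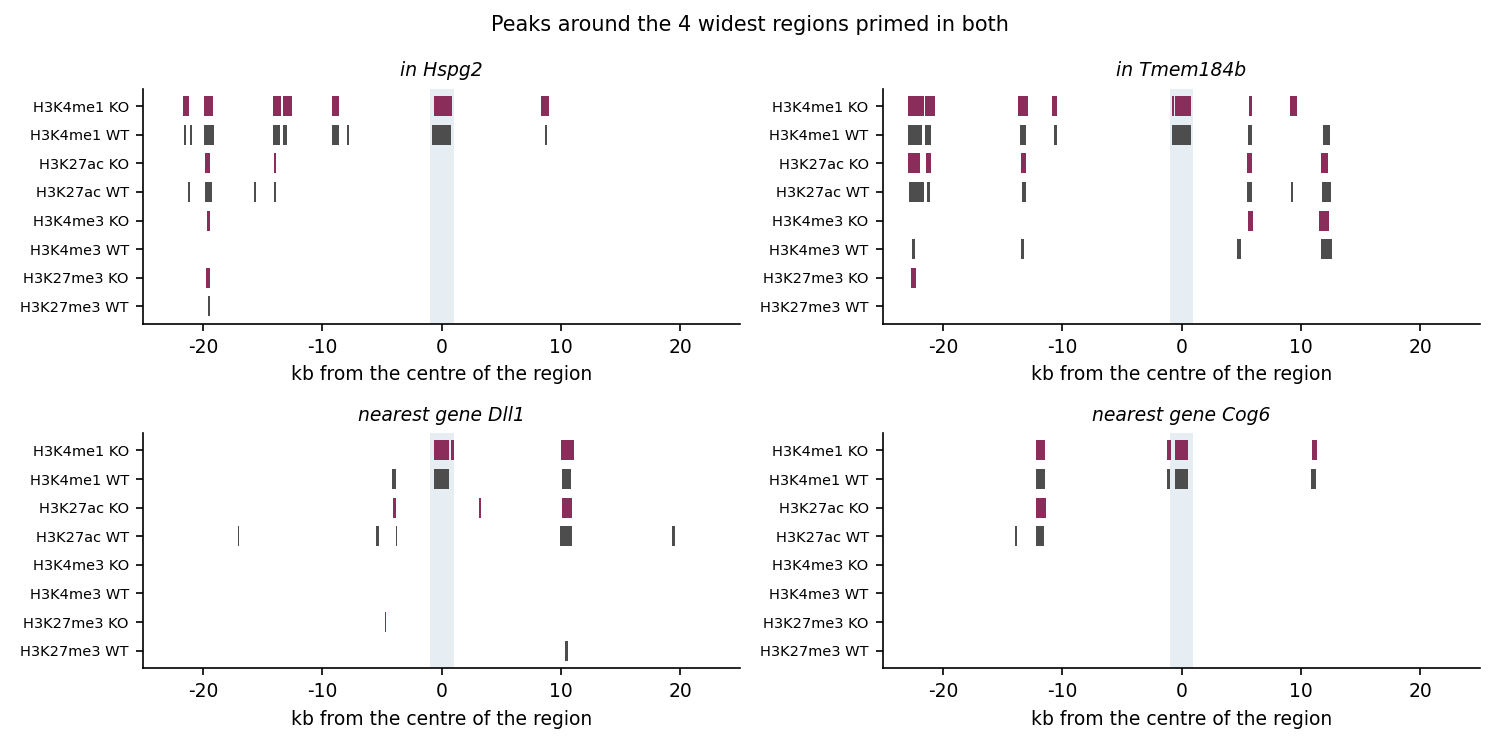
Peaks of the 4 marks in KO (purple) and WT (grey) within 25 kb of the centre of the 4 primed regions with the longest common stretch of H3K4me1 (x axis, kb from the centre, shaded around 0). Each has H3K4me1 of both genotypes at the centre and H3K27ac at a distance, which is 13029 bp in KO and 13021 bp in WT at Hspg2.

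At the other end were regions whose H3K4me1 differed most in width while both lists still held a peak. The largest KO over WT ratio, 11.7, was in Gata3, the gene of a GATA factor known in lymphoid and endothelial cells (chromosome 2, 9870942 to 9872021), with a peak of 1080 bp in KO and 92 bp in WT. It was followed by regions in Abcg2, an efflux transporter (1175 bp in KO, 112 bp in WT), Mast3, a kinase (969 bp and 102 bp), Tmcc3 (989 bp and 106 bp) and Pitpnc1, a phosphatidylinositol transfer protein (1027 bp and 112 bp). The Abcg2 and Mast3 regions lay close to H3K27ac, at 72 bp and 310 bp in KO and 952 bp and 218 bp in WT.

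The smallest ratio, 0.108, was in Arhgef28, with 130 bp in KO and 1205 bp in WT, and there the nearest H3K27ac peak was 5977 bp away in KO and 63 bp in WT. The next were regions in Zfp608 (126 bp in KO, 784 bp in WT), Sec24d, a subunit of the COPII coat (124 bp and 755 bp), 64783 bp from Irf8, an interferon regulatory factor of myeloid cells (123 bp and 732 bp), and in Mfsd4b4 (115 bp and 676 bp). In each of these 10 the narrower peak was between 92 and 130 bp wide.

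Primed regions were inside genes more often than active ones. Of the 5433, 3611 (66.5%, 65.2 to 67.7) overlapped the body of a protein-coding gene, against 57.5% (56.5 to 58.5) of regions active in both and 61.0% of all 20667. Regions primed in 1 genotype only, which had H3K4me1 in that genotype alone, were inside genes in 67.2% of cases for KO (66.2 to 68.3) and 60.7% for WT (59.4 to 62.0), so the share was not particular to regions primed in both. In each of the 10 width classes the share inside genes was higher for primed than for active regions, by 4.60 to 13.3 percentage points. The median distance to a gene end was 25256 bp for primed and 35157 bp for active regions, and 15.6% and 21.4% lay over 100000 bp from any. The 3 primed regions farthest from a named gene were 921119 bp from Mat2b, 898984 bp from Ttll7 and 854254 bp from Dpp10. The marks at the ends of the genes that held primed regions had shares close to those for active ones. Of the 3611 regions inside genes, 71.4% (69.9 to 72.9) were in a gene with H3K27ac within 1000 bp of an end in both genotypes, against 71.3% of 5785 active regions. In 8.28% of cases the gene had H3K27me3 and no H3K27ac at its ends, against 7.16%, and in 12.0% it had neither mark, against 12.5%.

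More primed regions had an H3K27ac peak of the longer WT list nearby than one of the KO list. A KO H3K27ac peak lay within 5000 bp of 2379 primed regions, 43.8% (42.5 to 45.1), and a WT peak within 5000 bp of 3212, 59.1% (57.8 to 60.4). Regions primed in KO only had such a peak in 49.0% of cases in KO and 62.9% in WT, and regions primed in WT only in 36.8% in KO and 54.7% in WT. For regions primed in both, the median distance was 6228 bp in KO and 3529 bp in WT. In 2094 regions (38.5%) both genotypes had such a peak, in 285 (5.25%) KO only, in 1118 (20.6%) WT only and in 1936 (35.6%) neither. Over 20000 bp from any H3K27ac peak of either genotype lay 415 regions (7.64%). The 2 H3K27ac lists differ in length, 44484 peaks in KO and 81112 in WT. With equal numbers of the widest peaks of each mark, which shortens the WT list, the shares were 43.7% for KO and 43.4% for WT, so the difference between genotypes was not seen under that setting. With peaks under 200 bp left out they were 35.1% in KO and 41.2% in WT.

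H3K4me3, the promoter mark, and H3K27me3, the Polycomb mark, lay near fewer primed regions than H3K27ac did. A KO H3K4me3 peak lay within 5000 bp of 21.9% (20.8 to 23.0) of primed regions and a WT peak within 5000 bp of 14.3% (13.3 to 15.2). For regions primed in KO only the shares were 23.7% in KO and 15.7% in WT, for regions active in both 16.3% and 7.71%, and for all 20667 regions 18.3% and 9.97%. H3K27me3 was within 5000 bp of 13.2% (12.3 to 14.1) of primed regions in KO and 9.48% (8.71 to 10.3) in WT, beside 12.4% in KO and 9.94% in WT for regions primed in KO only, 5.94% and 4.26% for active regions, and 8.42% and 6.13% for all. Here the KO lists were the longer ones, with 22724 H3K4me3 peaks in KO against 14984 in WT, and 31022 H3K27me3 peaks in KO against 20918 in WT, and the part of list length in these distances was not tested.

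**Figure D4:**
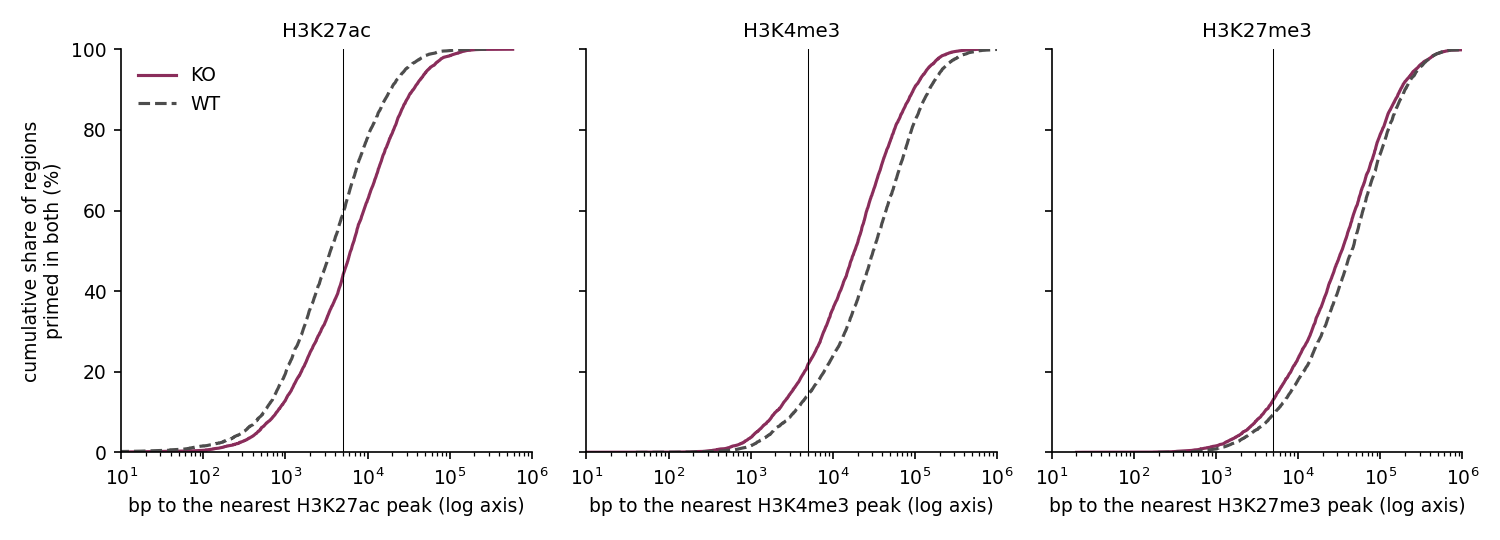
Cumulative share of the 5433 primed regions (y axis, percent) by distance to the nearest peak of H3K27ac, H3K4me3 and H3K27me3 (x axis, bp, log) in KO (solid purple) and WT (dashed grey), with a line at 5000 bp. The WT curve leads for H3K27ac, with 43.8% in KO and 59.1% in WT at the line, and the KO curve leads for the other marks.

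Primed regions had another primed region as their nearest neighbour slightly more often than their share of distal regions. The nearest other distal region was 4321 bp away at the median, and it was itself primed in both for 16.9% (15.9 to 17.9) of primed regions, while such regions were 14.2% of all 38352 distal regions without H3K4me3 and H3K27me3. For 21.8% the nearest was a region active in both (26.2% of all), for 22.1% one primed in KO only (19.5% of all) and for 15.7% one primed in WT only (14.2% of all). Regions active in both had a primed region as the nearest in 12.1% of cases and another active one in 31.0% (26.2% of all), so a like neighbour was not particular to primed regions. Divided into windows of 100 kb, 2621 of the 3788 windows with a primed region held exactly 1, 95 held at least 4, and the most in a window was 7. This was reached in a window at Unc5a and in a window on chromosome 16, from 30100001 to 30200000. The latter did not contain Hes1, which is at 30065357 to 30067796, and its regions were assigned by position to Hes1 and Cpn2.

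The genes with the most primed regions were long. In all, 2126 protein-coding genes overlapped at least 1, of which 1383 held exactly 1 and 99 held at least 5. Genes with a primed region had a median length of 87.3 kb, close to the 89.4 kb of genes with an active region, against 17.5 kb over all 20665 genes. Of the 2126, 963 (45.3%) held no region active in both. Among all 20665 genes only 2588 held such an active region, so most genes held none. Arhgap26 led with 17 primed and 36 active regions over 775 kb. Foxp1, a forkhead factor, held 12 and 13, Ptprm, a receptor phosphatase of endothelial cell contacts, 12 and 4, and Lrmda 12 and 8. Mcc held 11 primed and 4 active regions, St6galnac3, a sialyltransferase, 11 and 13, Aff3 10 and 5, and Dock1, a Rac exchange factor, 10 and 3.

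Ppp3ca, the catalytic subunit of calcineurin, held 9 primed and 6 active regions, Ldlrad4, an inhibitor of TGF-beta signalling, 9 and 18, and Plcb1, a phospholipase C, 9 and 12. With 8 primed regions each followed Tanc1 (6 active), Gnaq, a G protein subunit (10 active), Igf1r, the receptor of insulin-like growth factor (10 active), and Trio, a Rac exchange factor (2 active). Together the 15 genes held 154 primed and 150 active regions, and primed ones outnumbered active ones in 8, a balance shaped by the choice of these genes. Over all genes 5464 primed and 10169 active assignments were made, a ratio of 0.537, but this also counts regions between genes by their nearest gene. The 15 genes were counted by overlap with the gene body only, and 3611 primed and 5785 active regions lay inside genes. Per length, Tanc1 was densest with 3.41 primed regions per 100 kb and Lrmda least dense with 1.16, against 1.21 over the summed length of all genes with a primed region. H3K27ac was found at an end of 13 of the 15 in both genotypes, the exceptions being Mcc, with H3K27me3 in both and no H3K27ac, and Aff3, with H3K27ac in KO only. The share of all genes with H3K27ac at an end was not counted. Of the 3611 primed regions inside genes, 71.4% lay in a gene with H3K27ac at an end in both genotypes.

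**Figure D5:**
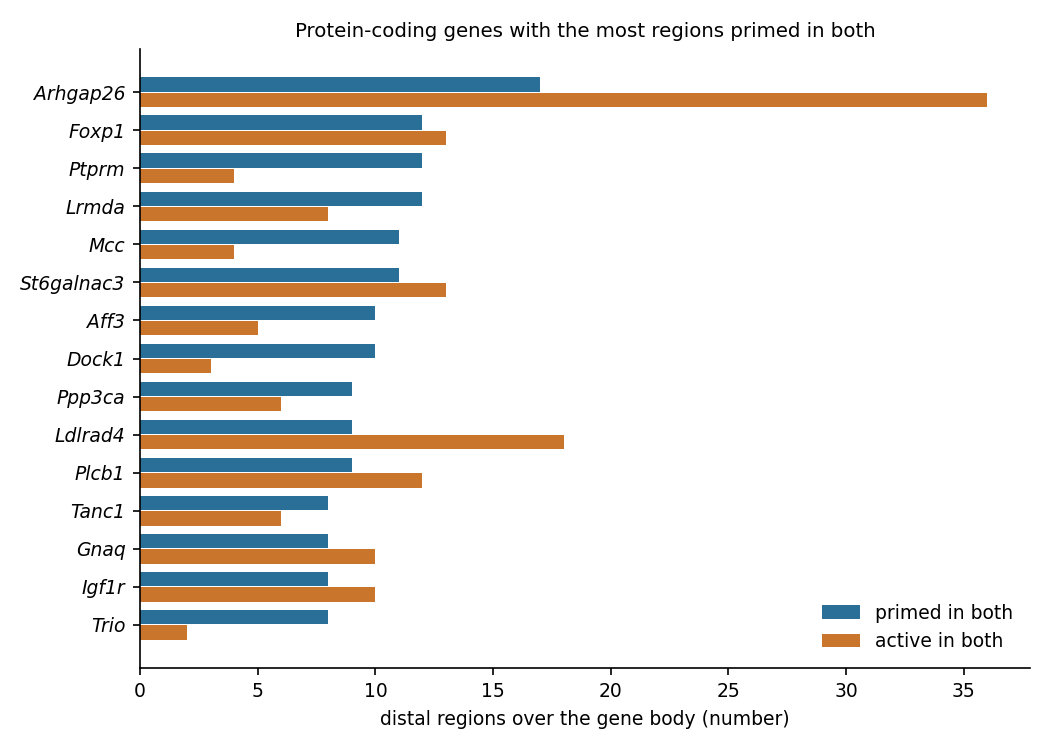
Number of distal regions over the gene body (x axis) that were primed (blue) or active (orange) in both genotypes for the 15 protein-coding genes with the most primed regions. Arhgap26 holds 17 primed and 36 active regions, and Trio 8 and 2.

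Some genes held primed regions and no region active in both genotypes. Among genes with at least 5 primed regions they included Tead1, a transcription factor of the Hippo pathway (6), Unc5a, a netrin receptor (6), Cux1, a homeobox factor (5), Ppp1r12a, a subunit of myosin phosphatase (5), and Vti1a, a SNARE protein (5). Unc5a stood apart from the other 4 in the marks at its ends. It had none of the 4 marks there in either genotype, whereas Tead1, Cux1, Ppp1r12a and Vti1a had H3K27ac and H3K4me3 in both. H3K27me3 was also at an end of Tead1 and Ppp1r12a in both genotypes and of Cux1 in KO. Ppp1r12a held no active region over its body but was the nearest gene of 2. At Unc5a, the 6 regions in the gene and 1 before it lay on chromosome 13 from 54911185 to 54994925. They had H3K4me1 peaks of 168 to 930 bp (median 338) in KO and 317 to 861 bp (median 414) in WT. The KO peak was wider at 3 and narrower at 4 of them, beside 65.1% wider over all primed regions of 1 KO and 1 WT peak. The nearest H3K27ac peaks were 27794 to 111130 bp away in KO and 27714 to 111050 bp in WT. Unc5a has 9.86 primed regions per 100 kb.

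Genes of endothelial identity and signalling were compared by assigning each region to the gene bodies it overlapped or, between genes, to the nearest gene body. This is an assignment by position and not a target. An active region here had H3K27ac in both genotypes and no H3K4me3 or H3K27me3 peak of either. A gene with no active region can therefore still have H3K27ac nearby, in 1 genotype or together with those marks. At least 1 primed region was assigned to 14.9% and at least 1 active region to 19.5% of all 20665 genes. The label of the sort was checked at gene ends first. Of 20 pan-endothelial genes, 16 had H3K4me3 and 17 H3K27ac in KO, and 15 and 19 in WT. Of 18 housekeeping genes 15 had H3K4me3 and 15 H3K27ac in each genotype, so high counts alone do not identify the cell type. The shares of all genes with these marks at an end were not counted. Of 10 leukocyte genes 1 had H3K4me3 in KO and 0 in WT, of 10 lung epithelial genes 4 and 1, and of 10 mural and mesenchymal genes 3 and 0. The H3K4me3 list was longer in KO, with 22724 peaks against 14984 in WT, and the part of list length in these counts was not tested. H3K27ac was found at 1, 5 and 2 genes of these 3 lists in KO and at 1, 4 and 3 in WT. Ptprc, which marks leukocytes, had no mark at its ends in either genotype, but 8 active regions and 1 primed region were assigned to it. The part of other cell types in the primed regions was not tested.

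Among arterial and Notch genes, Hes1 and several Notch ligands carried primed regions. Of 19 such genes 12 had at least 1 primed and 9 at least 1 active region, with 38 primed and 30 active regions in all, and 8 had more primed than active ones. Without Hes1 the list had 26 primed and 27 active regions, and over all genes the ratio of primed to active assignments was 0.537. Hes1, a transcriptional repressor downstream of Notch, had 12 primed and 3 active regions, the most primed regions of any gene on the lists. They lay on chromosome 16 on both sides of the gene, 5681 to 160407 bp away. Their H3K4me1 peaks were 124 to 777 bp wide in KO (median 411) and 119 to 475 bp in WT (median 291). The KO peak was wider at 8 and narrower at 4, beside a wider KO peak at 65.1% of all primed regions of 1 KO and 1 WT peak. The distance to H3K27ac was 1541 to 31113 bp in KO and 951 to 12000 bp in WT. The widest was at 29995795 to 29996582, with 777 bp in KO and 475 bp in WT.

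The Notch ligands followed. Jag1 had 6 primed and 4 active regions. Its primed regions lay on chromosome 2 between 137190821 and 137644858, with median peak widths of 530.5 bp in KO and 387 bp in WT. They were wider in KO at 5 of 6, beside 65.1% of all primed regions of 1 KO and 1 WT peak. Dll1 had 3 primed and no active region, among them the wide one described above. H3K4me1 peaks of both genotypes, in KO 9965 to 11099 bp from the centre of that wide region, overlapped H3K27ac of both. They also overlapped a WT H3K27me3 peak and so were not counted as active. Dll4, the ligand of arterial and sprouting endothelium, had 2 primed and no active region, 4840 and 7152 bp before the gene, with peaks of 386 and 390 bp in KO and 250 and 367 bp in WT. Dkk2, a Wnt regulator, had 4 primed and no active region, of which the widest spanned 131868847 to 131869877 on chromosome 3 with 909 bp in KO and 852 bp in WT.

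Most pan-endothelial genes had active regions and part of them primed ones. Of 20 genes 10 had a primed and 16 an active region, with 29 primed and 77 active regions, and none had more primed than active ones. Cdh5, the gene of VE-cadherin, had 5 primed and 5 active regions. Its primed peaks were 148 to 397 bp wide in KO (median 183) and 176 to 370 bp in WT (median 243), with H3K27ac 110 to 4931 bp away in KO and 615 to 2936 bp in WT. Cldn5, a claudin of tight junctions, had 4 primed and 5 active regions, Kdr, the main VEGF receptor, 4 and 13, and Flt1, the decoy VEGF receptor, 3 and 7. Erg had 3 and 3.

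Among 13 general capillary genes 8 had a primed and 9 an active region (23 and 38 regions). Kit, the receptor of stem cell factor, had 7 primed and 10 active regions. The primed ones, on chromosome 5, had peaks of 123 to 450 bp in KO and 108 to 798 bp in WT. The KO peak was wider at 3 and narrower at 4 of these, beside 65.1% wider over all primed regions of 1 KO and 1 WT peak. Kit and Kdr are neighbours on this chromosome, and the regions between them were divided by distance alone. Sema3c, a semaphorin, had 4 primed and no active region, Bmp6 and Ptprb, the endothelial receptor phosphatase, 3 and 1 each, and Cxcl12 3 and 3. Of 13 aerocyte genes 5 had a primed and 5 an active region (12 and 28 regions), led by Kitl, the ligand of Kit, with 5 primed and 4 active regions, and Nrp1, a co-receptor of VEGF, with 3 and 9. Of 15 venous and lymphatic genes 5 had a primed and 4 an active region (9 and 9 regions). Car8 had 3 and 2 and Flt4, the receptor of lymphatic VEGF, 2 and 2, while Nr2f2, the venous identity factor, and Vcam1, an adhesion molecule, had 1 primed and no active region each.

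In the list of VEGF, angiopoietin and guidance genes, whose median length was 187 kb, 16 of 28 had a primed and 18 an active region (28 and 66 regions). Vegfa had 3 primed and no active region, with peaks of 165 to 644 bp in KO and 253 to 566 bp in WT, and 1 of them was 76350 bp from H3K27ac in KO and 75874 bp in WT. Ntn1, a netrin, had 4 and 3, Epha4 3 and 6, and Sema6a 3 and 16. Of 29 BMP and TGF-beta genes 15 had a primed and 18 an active region (34 and 70 regions). Ltbp1, which binds latent TGF-beta, had 6 primed and 3 active regions. Its primed peaks had medians of 315.5 bp in KO and 199 bp in WT. The KO peak was wider at 5 of 6, beside 65.1% of all primed regions of 1 KO and 1 WT peak. Bmpr2, the receptor mutated in pulmonary hypertension, had 4 and 6, Acvr1 3 and 0, and Smad2 3 and 1. Of 30 immediate early and inflammation genes 10 had a primed and 8 an active region (16 and 29 regions). Jun had 3 primed and 4 active regions and Myc 3 and 7.

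Genes of other lineages and housekeeping genes had primed regions at shares whose intervals were wide. Of 39 developmental factors of other lineages 2 had a primed region (5.13%, 0.627 to 17.3) and 7 an active one, an interval that includes the 14.9% of all genes. Their primed regions were 1 in Pax5, a B cell factor, and 1 near Sox10, a neural crest factor. All 39 had H3K27me3 at an end in each genotype. The mark was also at an end of 24 of 30 immediate early and inflammation genes in KO and 20 in WT. For 18 housekeeping genes the counts were 10 in KO and 8 in WT, and for 20 pan-endothelial genes 7 and 7. The share over all genes was not counted. Of 18 housekeeping genes 1 had a primed and 4 an active region. A primed region was assigned to 1 of 10 leukocyte genes, 2 of 10 lung epithelial and 2 of 10 mural and mesenchymal genes, the last lists at 20% each (2.52 to 55.6). Hopx, an epithelial gene of the alveolus, had 3 primed and no active region and had H3K27ac at an end in both genotypes. Regions with H3K27me3 were left out by the rule, and long genes and genes with much space around them are assigned more regions, so these counts describe position only.

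Dnmt3a itself held 1 primed region and 2 active ones. The primed region was on chromosome 12 at 3885043 to 3885534, with a KO peak of 214 bp and a WT peak of 492 bp, 2015 bp from H3K27ac in KO and 2062 bp in WT. These lists cannot serve as a check of the genotypes, since the deleted stretch is not known here.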

How the data were processed

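The authors deposited 8 lists of peaks, each with the positions (1-based) and widths in bp, which were used without rescaling. Per the submitters' processing notes, peak calling software MACS2 2.1.2.1, the aligner Bowtie2 2.2.6, the trimmers cutadapt 1.14 and Trim Galore 0.4.4, and deepTools 3.1.1 beside SAMtools belong to the upstream work, and so do the builds mm10 and R64. The sources used here do not state their settings, the threshold or any pooling of samples, and the depth is unknown. H3K9me3, which a protocol names, was not analysed here.

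Merging and counting used pandas 2.3.3 and numpy 2.4.6 under Python 3.11.15, intervals scipy 1.17.1, and figures matplotlib 3.10.9. Genes were the 20665 RefSeq protein-coding genes of GRCm38.p6 on chromosomes 1 to 19, and both ends were used. Distances run between region borders. Of 260 different genes on 13 lists, 254 were found. Start windows came from RefSeq (GRCm38.p6), and sequence of other regions was not used here.

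The members and gene lists were chosen with earlier results of these data known. Named regions were the 8 with the longest common stretch, the 5 largest and 5 smallest width ratios where the wider peak had at least 300 bp, and the 3 farthest from genes. Named genes were the 15 with the most primed regions, the 5 of those with at least 5 primed and fewest active regions, and up to 5 genes a list. Symbols such as those starting with Gm were passed over. Width classes, windows of 100 kb, distances of 20 and 100 kb, start windows with their motifs, the count without Hes1 and the choice of list genes described region by region were added after values were seen. The steps were tested on 4000 simulated regions, and the number recovered in each state differed by 0 from the number made. This compared counts per state and not single regions. The conditions on gene ends, H3K4me3 and H3K27me3 were not exercised by it. No value per sample entered, so no replicate could be left out.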

Additional observations from a re-analysis of the deposited data

How the results depend on the processing

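The number of primed regions stayed within 1.5 times of 5433 under the 7 alternatives tried, between 4576 and 6549. Their share of regions with H3K4me1 in both genotypes (26.3%) was 25.6% where KO and WT peaks had to share at least 50% of the shorter peak, 24.98% over 5000 bp from gene ends, 23.2% with no H3K27ac within 500 bp, 28.8% without peaks under 200 bp and 29.1% where lists were cut to equal numbers by width. The KO over WT width ratio (1.25) was 1.20 without peaks under 200 bp and 1.23 with equal numbers. The share inside genes (66.5%) was 65.0% without peaks under 200 bp and 68.0% with the ends of all annotated genes. The share with H3K27ac within 5000 bp, 43.8% in KO and 59.1% in WT, was 39.3% and 56.2% over 5000 bp from gene ends, 40.1% and 54.9% with no H3K27ac within 500 bp, 35.1% and 41.2% without peaks under 200 bp, and 42.0% and 57.4% with H3K27me3 allowed. With lists of equal length it was 43.7% in KO and 43.4% in WT, a setting that shortens the WT H3K27ac list by construction. Within 10 classes of merged width, an alternative chosen after seeing the data, the ratio from the narrowest class on was 1.04, 1.13, 1.18, 1.34, 1.34, 1.42, 1.53, 1.56, 1.83 and 1.95. The share inside genes was 64.1%, 64.9%, 69.0%, 69.4% and 71.7% in the 5 classes where it left the interval of the main value. The cause of the other shifts was not tested. No paired analysis was possible because each group has 1 list of peaks and no value per sample, and leaving out replicates was not run for the same reason.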
